A study of Mus musculus with 11 samples.

Results

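The 30 genes described here are markers of the oligodendrocyte lineage and of myelin, taken by symbol from a table of 30681 genes in the mouse hippocampus. All 30 were in the table, and all 30 passed the filter on low counts with the other genes that make up the 16587 tested. The study compared mice with a conditional knockout of Dclk3, a gene of the doublecortin-like kinase family, with wild-type (WT) mice, all at 6 months of age. A conditional knockout (cKO) removes a gene only in cells that express a recombinase. The recombinase, the cells it acts in, the deleted part of the gene and the strain and sex of the mice were not given in the sources used here. Each library was made from the poly(A) RNA of a single hippocampus, with 6 libraries labelled cKO and 5 WT libraries, and whether each came from a different animal is not stated. A p-value here thus covers the spread between samples, which may be in part technical.

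Oligodendrocytes wrap axons of the brain in myelin, a stack of membrane rich in lipid that speeds conduction. They arise from precursor cells, which carry the PDGF receptor alpha and the proteoglycan NG2 and which persist and divide in the adult hippocampus. Under the factors Olig2, Sox10 and Myrf these cells leave the cycle, pass through a short premyelinating stage and then switch on the genes of the sheath.

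Total counts ran from 24001828 to 35674490 per library with no group difference beyond their spread (2-sided exact permutation p = 0.851). Dclk3 itself had 22.4 ± 3.31 CPM in WT (SD, n = 5) and 20.1 ± 3.44 CPM in the other group (SD, n = 6), and a count over the whole gene cannot tell whether a part was removed (edgeR's quasi-likelihood test, Benjamini-Hochberg adjusted p = 0.727). CPM are counts scaled to a common library total. As the targeted gene was not shown to be lower, the mutant group goes by its label, "labelled cKO". By Xist and Y-linked transcripts, 8 libraries were male, among them all 6 labelled cKO, and WT replicates 1, 3 and 4 were female. Genotype and sex are thus partly confounded, so the values of the 8 male libraries (6 labelled cKO and 2 WT) are given where they turn a direction, move one of the larger differences or widen a bound. The labelled tissue was checked against its markers, and 7 of 7 genes of hippocampal fields were present, with summed levels of 666 to 822 CPM in WT and 686 to 753 CPM in the other group.

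The stretches of DNA just upstream of 4 of these genes are shown because, across the libraries, their levels followed different courses: Mog and Cnp moved together, Mobp moved with Mbp, and Pdgfra marks the precursors. Of the 30 members 20 have windows in the RefSeq table (build GRCm38.p6). Each line gives 200 bases in the direction of transcription, from 250 to 51 bases before the annotated start, with matches to the motifs searched in capitals.
Mog (chr17:37023449-37023648, minus strand): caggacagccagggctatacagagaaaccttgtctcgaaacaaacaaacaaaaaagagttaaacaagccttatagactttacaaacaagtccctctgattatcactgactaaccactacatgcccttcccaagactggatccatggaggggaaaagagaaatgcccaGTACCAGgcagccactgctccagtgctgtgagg
Cnp (chr11:100574689-100574888, plus strand): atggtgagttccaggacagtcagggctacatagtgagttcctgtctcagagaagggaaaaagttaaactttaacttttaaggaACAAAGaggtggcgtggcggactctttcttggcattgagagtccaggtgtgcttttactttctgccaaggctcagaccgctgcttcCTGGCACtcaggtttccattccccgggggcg
Mobp (chr9:120149492-120149691, plus strand): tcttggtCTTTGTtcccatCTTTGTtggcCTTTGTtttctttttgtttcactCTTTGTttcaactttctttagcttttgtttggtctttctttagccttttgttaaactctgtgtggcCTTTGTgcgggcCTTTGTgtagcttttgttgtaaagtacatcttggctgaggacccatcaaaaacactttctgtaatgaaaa
Pdgfra (chr5:75152001-75152200, plus strand): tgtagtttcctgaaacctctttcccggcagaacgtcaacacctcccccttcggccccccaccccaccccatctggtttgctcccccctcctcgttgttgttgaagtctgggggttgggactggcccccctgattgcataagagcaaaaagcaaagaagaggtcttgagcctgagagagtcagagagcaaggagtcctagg
The motifs were ACAAAG and ACAATG (the core bound by SOX factors such as Sox10), CTGGCAC and CTGGTAC (bound by Myrf), CAGCTG and CATATG (E-boxes, bound by dimers that include Olig2) and TATAAA, on both strands of the 250 upstream bases. None of these motifs contains another. The window of Mobp held 6 copies of ACAAAG, all on the opposite strand. The Cnp window held ACAAAG and CTGGCAC, that of Mog held CTGGTAC on the opposite strand, and that of Pdgfra held none of the letters searched. Over all 32851 windows of this length ACAAAG was in 16.5% and in 28% of the 25 windows of members. For CTGGCAC the shares were 4.19% and 12%, and for CAGCTG 13% and 8%. The shares for the other motifs, again over all windows and then over those of members, were 10.7% and 16% for ACAATG, 1.83% and 4% for CTGGTAC, 3.46% and 4% for CATATG and 12.4% and 12% for TATAAA. A gene with several starts has several windows, so these shares count Mag and Gjb1 more than once, and a match of letters is not a bound site.

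Per length of exon, Mbp was the most abundant of the 30 genes. It encodes myelin basic protein, which holds the inner faces of the myelin membrane together, and reached 352 ± 37.9 CPM per kb of exon (SD, n = 11). Mobp, another basic protein of compact myelin, followed with 118 ± 12.4 CPM per kb. Cnp, which encodes the CNPase of non-compact myelin, had 70.6 ± 8.50 CPM per kb. The ranges of Mbp, Mobp and Cnp over the 11 libraries did not overlap one another. Cnp, Mal, Olig1 and Bcas1, at 52.3 to 70.6 CPM per kb, had ranges that overlapped from one to the next. Below a gap under Bcas1 the order ran without a break from Cspg5 (33.5 ± 0.995 CPM per kb) to Aspa (2.56 ± 0.288), each range overlapping the next. Cspg4, Tmem163 and Enpp6 were lowest, with means of 1.79, 1.15 and 0.897 CPM per kb. Even so, no member had fewer than 97 reads in any library.

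**Figure D1:**
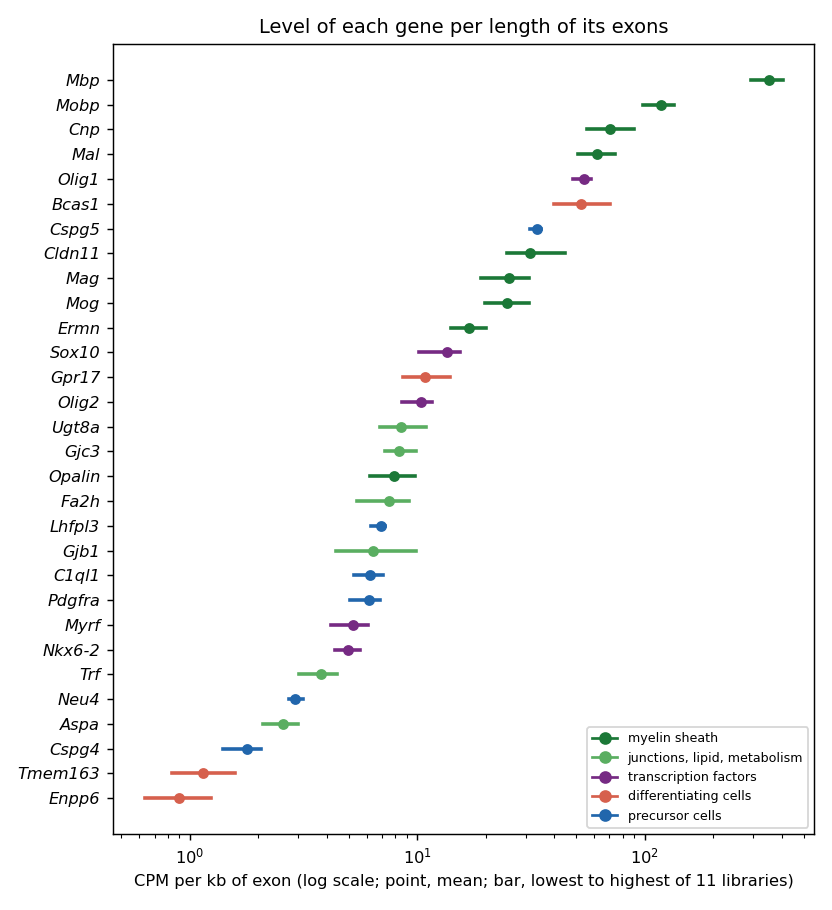
Mean level of each of the 30 genes in CPM per kb of exon (log axis, points), with the lowest to highest of the 11 libraries (bars), coloured by role. Mbp stands above Mobp, and Mobp above Cnp, with no overlap of their ranges.

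The main comparison asked whether the lineage differed between the genotypes. No member passed the test: 0 of 30 were called higher and 0 lower at an adjusted p under 0.05, where 0% of all 16587 genes were called (edgeR quasi-likelihood test, Benjamini-Hochberg adjustment over all genes). At an unadjusted p under 0.05 there were again 0 of 30 members, against 9.19% of all genes, with 0 members higher (3.84% of all genes) and 0 lower (5.35%), and DESeq2 called 0 members and 62 genes in all. Scaled by total counts in place of TMM, all genes at that unadjusted p split into 262 higher and 1388 lower, against 637 and 887, and the members again gave 0. The groups overlapped for each of the 30 members, while 0.916% of all genes had groups that did not overlap. The fold changes were small. They ran from -0.17 (Sox10) to 0.24 (Enpp6) on the log2 scale, with 12 members above and 18 below 0, a median of -0.03 and a median of -7.9e-05 over all genes. For all 30 members the 95% interval of the fold change, fitted without regard to sex, lay within a 1.5-fold difference in either direction, and for 20 of 30 within 0.32 (log2). That bound did not hold for every member once sex was taken into account. With a sex term 27 of 30 intervals lay within 1.5-fold, those of Gjb1, Enpp6 and Tmem163 reaching beyond it, and the fold changes ran from -0.20 (Tmem163) to 0.36 (Enpp6). In the 8 male libraries 25 of 30 did, those of Cldn11 and Gpr17 reaching beyond it as well. Each of the 30 intervals spanned 0 in both fits. In simulated counts of the same size the test recovered 75.5% of the 49 tested genes changed 1.5-fold and 89.6% of the 48 changed 2-fold. The changed genes were picked at random from all tested genes, and counts were drawn independently with no sex effect. Many members moved together across libraries, and sex is partly confounded with genotype, so these shares do not carry over to the members. In bulk tissue, fewer oligodendrocytes and less RNA per oligodendrocyte cannot be told apart.

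**Figure D2:**
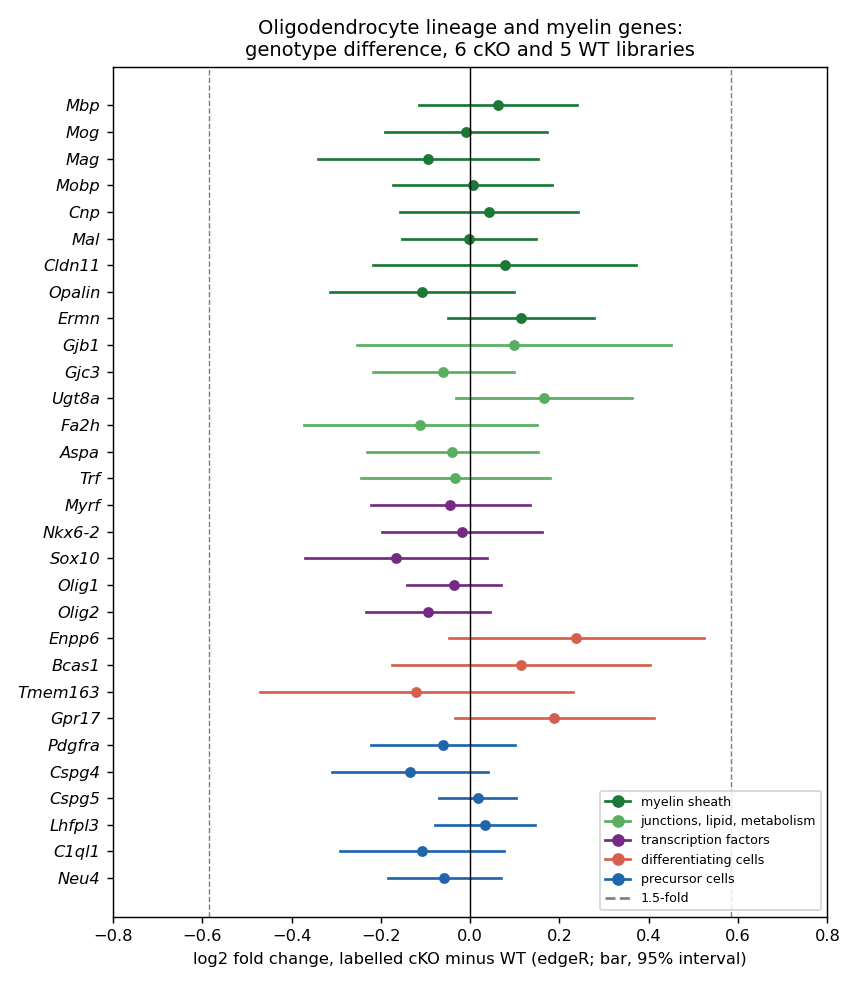
Log2 fold change of each gene, labelled cKO minus WT (edgeR, all 11 libraries, no sex term; points), with its 95% interval (bars), coloured by role. Dashed lines mark 1.5-fold; each of the 30 intervals spans 0 and stays between the dashed lines.

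The 9 genes of the myelin sheath had a median log2 fold change of 0.0062, with 5 above and 4 below 0. Mbp (ENSMUSG00000041607, chromosome 18, 82475146 to 82585637, plus strand, mm10) had 3171, 3226, 2698, 2558 and 2914 CPM in WT replicates 1 to 5. In the libraries labelled cKO its lowest, median and highest values were 2490, 3132 and 3423 CPM. The libraries labelled cKO covered the wider span, with replicate 5 labelled cKO below every WT library and replicates 2, 4 and 6 labelled cKO above every WT library. The difference was 0.06 ± 0.08 (log2 ± SE; 95% interval -0.11 to 0.24; edgeR, adjusted p = 0.871). Its sign turned in the 8 male libraries, to -0.01.

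Mog (ENSMUSG00000076439, chromosome 17, 37010743 to 37023398, minus strand) encodes a glycoprotein of the outermost myelin surface, and is a late marker of the lineage. In WT replicates 1 to 5 it had 43.1, 40.7, 45.3, 43.2 and 40.4 CPM, and in the libraries labelled cKO it ran over 33.9, 41.7 and 52.9 CPM (lowest, median, highest). The WT values lay inside the wider span of the labelled cKO values, and the difference was -0.01 ± 0.09 (log2 ± SE; 95% interval -0.19 to 0.17). Mag (ENSMUSG00000036634, chromosome 7, 30899176 to 30914873, minus strand), an adhesion molecule that faces the axon, had 112, 95.7, 107, 109.8 and 108 CPM in WT and 77.5, 104 and 127 CPM (lowest, median, highest) in the other group. Replicates 2 and 5 labelled cKO lay below all WT libraries and replicate 4 labelled cKO above them, for a difference of -0.09 ± 0.11 (log2 ± SE). The other 6 sheath genes lay between -0.11 and 0.11. Mobp was at 0.01 ± 0.08, Cnp at 0.04 ± 0.09 and Mal, a proteolipid that sorts myelin membrane, at -0.0035 ± 0.07 (log2 ± SE). Cldn11, the claudin of the myelin tight junction, was at 0.08 ± 0.13, Opalin, a transmembrane protein of oligodendrocytes, at -0.11 ± 0.10 and Ermn, a cytoskeletal protein of late oligodendrocytes, at 0.11 ± 0.08 (log2 ± SE). Cnp ran from 238 to 266 CPM in WT and 202 to 328 CPM in the other group, and Cldn11 from 51.6 to 64.6 CPM in WT and 46.3 to 83.2 CPM in the other group, so that for both genes the WT range sat inside the other. The signs of Mobp and Mal depended on the scaling, with Mobp at -0.02 by total counts and Mal at 0.00093 with DESeq2 size factors. Opalin went from -0.11 to 0.02 in the 8 male libraries.

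Among the 6 genes of glial gap junctions, lipid synthesis and metabolism, 2 lay above and 4 below 0, with a median of -0.04. Ugt8a (ENSMUSG00000032854, chromosome 3, 125865271 to 125938619, minus strand) makes galactosylceramide, the main glycolipid of myelin. It had 38.4, 36.8, 38.4, 32.6 and 34.9 CPM in WT replicates 1 to 5 and 31.1, 40.6 and 49.8 CPM (lowest, median, highest) in the libraries labelled cKO. Of the latter, replicates 1, 3, 4 and 6 were above every WT library and replicate 5 was below every one. At 0.17 ± 0.09 (log2 ± SE; edgeR, adjusted p = 0.607) it had the largest difference of this group. Fa2h, which hydroxylates the fatty acids of those lipids, was at -0.11 ± 0.12 (log2 ± SE). Aspa, the enzyme that splits N-acetylaspartate to feed acetate into lipid, was at -0.04 ± 0.09 (log2 ± SE). The connexins Gjb1 and Gjc3, which couple oligodendrocytes to astrocytes and to one another, were at 0.10 ± 0.16 and -0.06 ± 0.07 (log2 ± SE). Gjb1 was widest in the libraries labelled cKO, from 7.50 CPM in replicate 5 to 16.8 CPM in replicate 6, against 10.0 to 10.9 CPM in WT. Trf, the iron carrier transferrin, was at -0.03 ± 0.10 (log2 ± SE) and turned to 0.14 in the 8 male libraries. Its count is uncertain, since 63.5% of its exon bases are shared with another annotated gene on the same strand.

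All 5 transcription factors of the lineage had negative fold changes with each of the 4 scalings run, and none passed the test. Sox10 (ENSMUSG00000033006, chromosome 15, 79154908 to 79165240, minus strand), which drives myelin genes and stays on through the lineage, had 47.3, 39.6, 41.0, 45.2 and 46.3 CPM in WT replicates 1 to 5. Its values labelled cKO were 31.0, 40.9 and 45.9 CPM (lowest, median, highest), with replicates 2, 5 and 6 under the WT range and the other 3 within it. The difference was -0.17 ± 0.10 (log2 ± SE; 95% interval -0.37 to 0.04; edgeR, adjusted p = 0.616). Without replicate 4 labelled cKO it widened to -0.22 (edgeR, adjusted p = 0.567). Olig2, which specifies the lineage, was at -0.09 ± 0.07 and its partner Olig1 at -0.04 ± 0.05 (log2 ± SE). Olig2 ran from 24.9 to 28.3 CPM in WT and 21.7 to 29.3 CPM in the other group, with replicate 2 labelled cKO at the bottom and replicate 1 of the same group at the top. Without replicate 1 labelled cKO, Olig2 was the 1 member at an unadjusted p under 0.05 (-0.14, log2), where 12.6% of all genes were. Myrf, the factor that turns on myelin genes in postmitotic cells, was at -0.04 ± 0.08 and Nkx6-2 at -0.02 ± 0.09 (log2 ± SE). In the 8 male libraries, Olig1 and Nkx6-2 turned, to 0.0095 and 0.08. Of the exon bases of Nkx6-2, 12.9% are shared with a gene on the opposite strand, whose reads cannot be told apart here.

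The genes of differentiating cells held the largest positive values, though none was called. Gpr17 (ENSMUSG00000052229, chromosome 18, 31942997 to 31949636, minus strand) encodes a receptor of committed precursors that is lost as myelination begins. In WT replicates 1 to 5 it had 53.7, 48.3, 50.3, 57.6 and 52.7 CPM, and in the libraries labelled cKO 44.9, 58.5 and 72.2 CPM (lowest, median, highest). Replicates 3, 4 and 6 labelled cKO lay above every WT library and replicate 5 below every one, for a difference of 0.19 ± 0.10 (log2 ± SE; edgeR, adjusted p = 0.601). Enpp6 (ENSMUSG00000038173, chromosome 8, 46986887 to 47096762, plus strand), a choline phosphodiesterase that marks oligodendrocytes as they form, had 5.98, 4.80, 5.54, 5.06 and 4.87 CPM in WT. Its values labelled cKO were 4.07, 6.34 and 7.94 CPM (lowest, median, highest), a difference of 0.24 ± 0.14 (log2 ± SE; 95% interval -0.05 to 0.52; edgeR, adjusted p = 0.609). With a sex term the Enpp6 difference was 0.36 (95% interval -0.04 to 0.76; edgeR, adjusted p = 0.721), and in the 8 male libraries it was 0.36 (95% interval -0.07 to 0.80; edgeR, adjusted p = 0.864). For Enpp6 too, replicate 5 labelled cKO was below the WT range, and replicates 1, 3, 4 and 6 were above it. Bcas1, a protein of early myelinating cells, was at 0.11 ± 0.13 (log2 ± SE). It ran from 160.4 to 217 CPM in WT and 151 to 266 CPM in the other group, again the wider span, and shares 12.6% of its exon bases with an antisense gene. Tmem163, a membrane protein of vesicles that neurons also make, was at -0.12 ± 0.16 (log2 ± SE), and at -0.20 in the 8 male libraries.

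Leaving out replicate 5 labelled cKO brought the most members under an unadjusted p of 0.05. Then Gpr17 (0.26), Enpp6 (0.33), Ugt8a (0.23) and Ermn (0.17; log2) had an unadjusted p under 0.05, 4 of 30 members where 9.08% of all genes did. None of them was called over all genes, the smallest adjusted p being 0.412 (edgeR). The median of the 17 mature genes, which are the sheath, junction and lipid genes with Myrf and Nkx6-2, moved from -0.0097 to 0.05. Leaving out replicate 4 labelled cKO moved it the other way, to -0.06, with Opalin (-0.19) and Sox10 then under an unadjusted p of 0.05, where 8.18% of all genes were. With both left out it was -0.011, and Gpr17, Enpp6, Ugt8a and Ermn again had an unadjusted p under 0.05, where 7.54% of all genes did (edgeR, smallest adjusted p = 0.633). That last comparison was chosen after the values were seen.

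**Figure D3:**
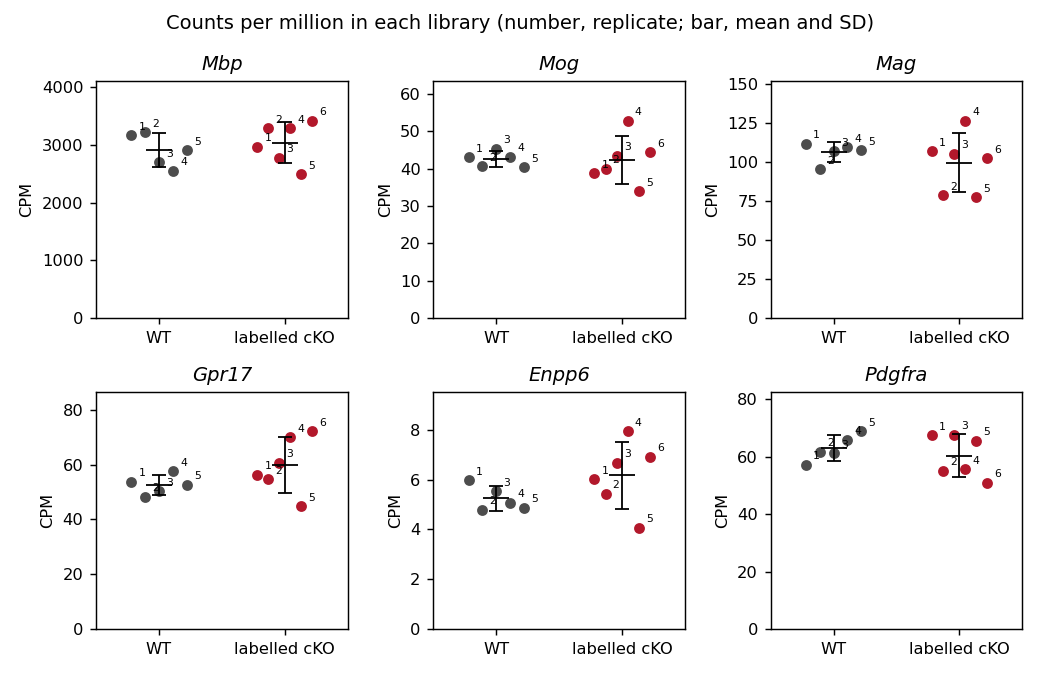
CPM of 6 of the genes in each library (points, numbered by replicate), with the mean and SD of each group (bars), from 0. Replicate 5 labelled cKO is the lowest library for Mbp, Mog, Mag, Gpr17 and Enpp6 but not for Pdgfra, where it lies at 65.6 CPM.

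The 6 precursor genes had a median log2 fold change of -0.06, with 2 above and 4 below 0. Pdgfra (ENSMUSG00000029231, chromosome 5, 75152292 to 75198215, plus strand), the receptor through which PDGF-A keeps precursors alive and dividing, had 57.2, 61.7, 61.2, 65.9 and 68.9 CPM in WT replicates 1 to 5 and 51, 60.6 and 67.6 CPM (lowest, median, highest) in the libraries labelled cKO. Replicates 2, 4 and 6 labelled cKO lay below all WT libraries and the other 3 within their range, for a difference of -0.06 ± 0.08 (log2 ± SE; 95% interval -0.22 to 0.10). Cspg4 (ENSMUSG00000032911, chromosome 9, 56865033 to 56899870, plus strand), which encodes NG2 and is also made by pericytes, had 23.7, 19.9, 20.9, 23.1 and 24.6 CPM in WT. Its values labelled cKO were 16.8, 20.5 and 23.2 CPM (lowest, median, highest), with the same replicates 4 and 6 lowest, and the difference was -0.13 ± 0.08 (log2 ± SE; edgeR, adjusted p = 0.644). Lhfpl3, a tetraspan membrane protein of precursors that shares 17.6% of its exon bases with a gene on the opposite strand, was at 0.03 ± 0.05 (log2 ± SE). C1ql1, a secreted C1q-like protein, was at -0.11 ± 0.09, and Neu4, a sialidase, at -0.06 ± 0.06 (log2 ± SE). Cspg5, a membrane proteoglycan that neurons and astrocytes also make, was at 0.02 ± 0.04 (log2 ± SE) and was the steadiest member, with a sign that turned by total counts (-0.01). Its level stayed between 315 and 352 CPM over all 11 libraries.

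Other genes of the lineage, from lists that do not overlap the members, gave the same count of 0 calls. The counts below at an unadjusted p under 0.05 stand beside 9.19% of all genes, 3.84% higher and 5.35% lower. Of 24 further genes of mature oligodendrocytes, 11 lay above and 13 below 0, with a median of -0.0065 and 1 at an unadjusted p under 0.05, which was Hapln2, a link protein of the node of Ranvier, at -0.31 ± 0.11 (log2 ± SE; edgeR, adjusted p = 0.422). Of 14 further precursor genes 3 had an unadjusted p under 0.05. These were Ednrb, the endothelin B receptor, which astrocytes make too, at 0.26 ± 0.07, Megf11 at 0.26 ± 0.09 and Matn4, a matrix protein, at -0.17 ± 0.07 (log2 ± SE; edgeR, adjusted p = 0.349, 0.416 and 0.507). Of 14 further regulators only Sox8, a close relative of Sox10, had an unadjusted p under 0.05, at -0.20 ± 0.05 (log2 ± SE; edgeR, adjusted p = 0.349). Among 15 ligands and receptors that act on the lineage, Notch1, which holds precursors back from maturing, was at -0.20 ± 0.06 and its ligand Jag1 at -0.39 ± 0.14 (log2 ± SE; edgeR, adjusted p = 0.416 and 0.441). The other 13 of them had an unadjusted p above 0.05. Of 12 genes of the node and the axonal contacts, which include Hapln2, 3 were higher and 1 lower at an unadjusted p under 0.05. Ank3, the scaffold of the node, was at 0.10 ± 0.05 and Cntn1, an axonal adhesion molecule, at 0.11 ± 0.05 (log2 ± SE), and Gldn, also on the list of Schwann cell genes, at 0.49 ± 0.22. The 12 genes of cholesterol synthesis, on which myelin growth draws, had 10 above and 2 below 0, a median of 0.05, and 0 at an unadjusted p under 0.05. Sqle, the squalene epoxidase, came nearest, at 0.10 ± 0.07 (log2 ± SE).

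What stood out among the members was a difference between libraries of the same group. Replicate 5 labelled cKO was the lowest of the 11 libraries for 20 of 30 members and for 16 of the 17 mature ones, where the same library was lowest for 7.34% of all tested genes. Aspa, the mature gene that was not lowest there, had its minimum in WT replicate 4. None of the 6 precursor genes was lowest in replicate 5 labelled cKO. At the other end, replicate 4 labelled cKO was the highest library for 8 of 30 members, namely Mog, Mag, Cnp, Mal, Cldn11, Opalin, Fa2h and Enpp6, and for 9.97% of all genes. Replicate 6 labelled cKO was highest for 7 members (Mbp, Ermn, Gjb1, Ugt8a, Trf, Bcas1 and Gpr17) and lowest for Pdgfra, Cspg4 and Cspg5. Over all tested genes it was highest for 12.3% and lowest for 12.9%, so 3 of 30 lowest is no more than this library's share in general. These members share a cell type and so are not independent counts. The 24 other genes of mature oligodendrocytes behaved in the same manner, with 13 lowest in replicate 5 and 11 highest in replicate 4 labelled cKO.

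**Figure D4:**
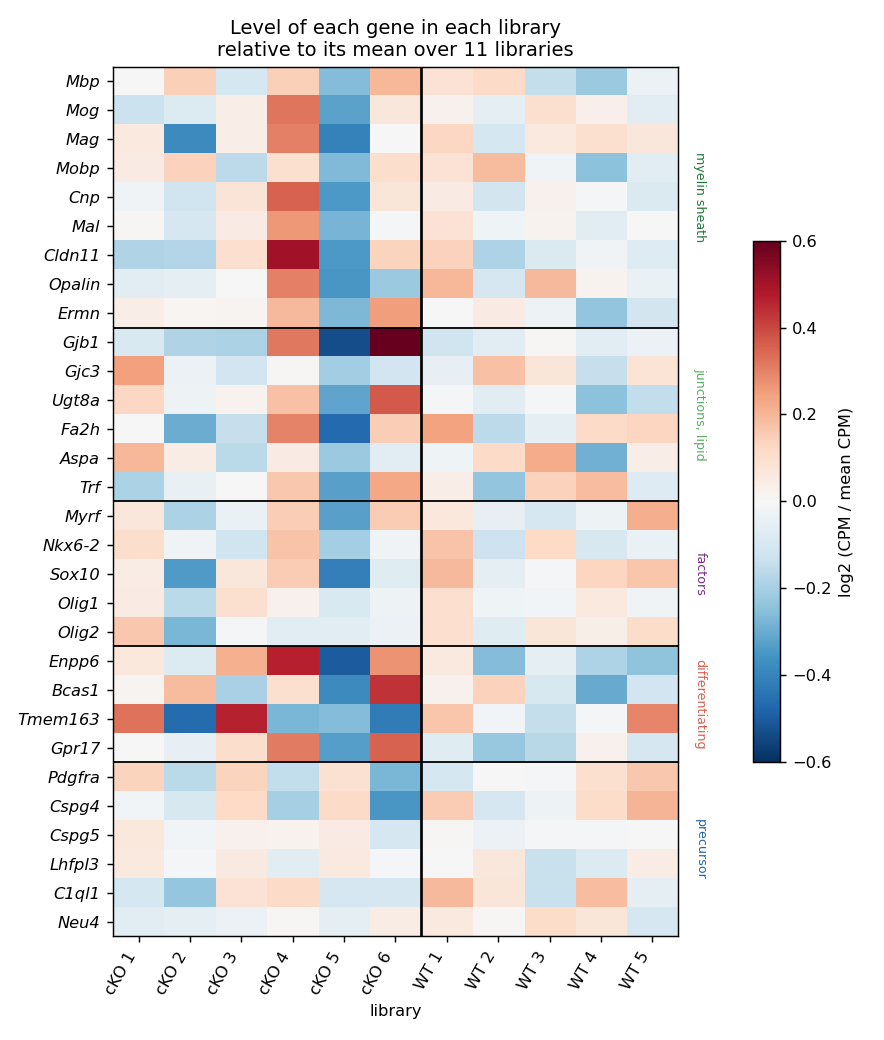
Level of each gene (rows, by role) in each library (columns) as the log2 of its CPM over its mean of 11 libraries, red above and blue below the mean. The column of replicate 5 labelled cKO is blue for the mature genes. Among the precursor genes, Pdgfra, Cspg4, Cspg5 and Lhfpl3 lie above their means there, and C1ql1 and Neu4 below.

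As an average over the 17 mature genes, the centred log2 CPM was -0.31 in replicate 5, 0.23 in replicate 4 and 0.12 in replicate 6 labelled cKO. It lay between -0.06 and 0.08 in the 5 WT libraries. The average over the 6 precursor genes was 0.03, -0.04 and -0.13 in those 3 libraries, of the opposite sign in each. The precursor genes did not all follow that average. In replicate 4 labelled cKO, Pdgfra, Cspg4 and Lhfpl3 lay below their means over the 11 libraries, and Cspg5, C1ql1 and Neu4 above. In replicate 6 labelled cKO, Neu4 lay above its mean and the other precursor genes below. In the 5 WT libraries the precursor average lay between -0.03 and 0.07, so the precursor average in replicate 5 labelled cKO was inside the WT range. In replicate 2 labelled cKO both averages were below 0, at -0.07 and -0.09. Over all 11 libraries the mature average spanned -0.31 to 0.23 and the precursor average -0.13 to 0.07.

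**Figure D5:**
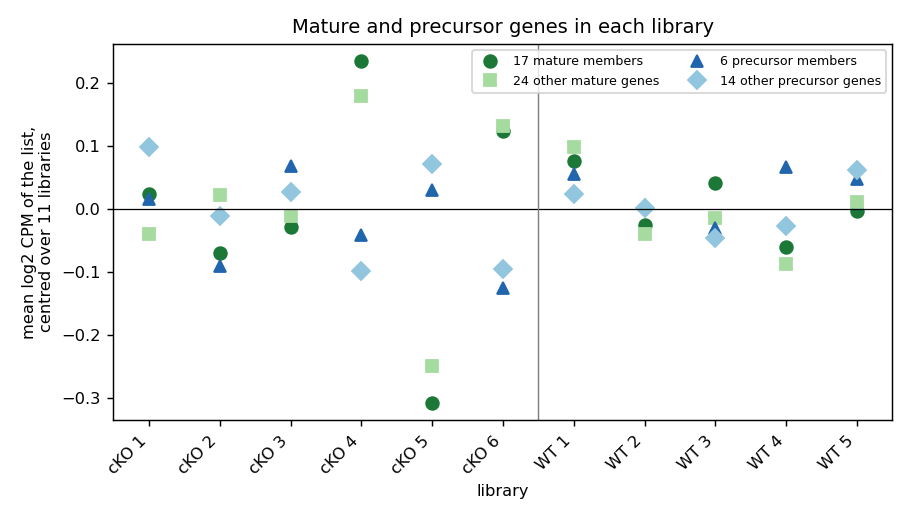
Mean centred log2 CPM in each library for the 17 mature members, 24 other mature genes, 6 precursor members and 14 other precursor genes. In replicates 4, 5 and 6 labelled cKO the mature and precursor lists lie on opposite sides of 0.

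The spread within the group labelled cKO was wider than within WT for 26 of 30 members, as an SD of log2 CPM, and for 62.9% of all tested genes. For the mature genes the median SD was 0.21 against 0.12 in WT, with 16 of 17 wider. For the precursor genes it was 0.09 against 0.09, with 3 of 6 wider. Without replicates 4 and 5 labelled cKO the mature median was 0.15, with 12 of 17 wider than in WT, where 62% of all tested genes were wider. Over all tested genes the median SD was then 0.14 in the group labelled cKO, against 0.11 in WT. The difference in spread was not tested.

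Pairs of members were correlated over the 11 libraries, all 435 pairs in 1 family with 2-sided permutation tests and Benjamini-Hochberg adjustment. The pairs share libraries, scaling and depth. At an adjusted p under 0.05 for Pearson's r, 52 pairs were positive and 5 negative, and 7 also passed for Spearman's rho. Pairs of other genes were not correlated, so whether these counts are particular to the members was not tested. Mbp followed Mobp with r = 0.92 (permutation p = 0.000110, adjusted 0.00652) and rho = 0.91 (permutation p = 0.000310, adjusted 0.0270). Mog followed Cnp with r = 0.95 (permutation p = 0.000230, adjusted 0.0100) and rho = 0.85 (permutation p = 0.00132, adjusted 0.0569). Mag followed Sox10 with r = 0.94 (permutation p = 0.000120, adjusted 0.00652) and rho = 0.92 (permutation p = 0.000270, adjusted 0.0270). Without the 2 libraries farthest from the median of the first gene, r was 0.82, 0.74 and 0.71 for these 3 pairs, and in the 8 male libraries it was 0.93, 0.97 and 0.95. For Mbp and Mog, both products of mature cells, the test was not passed, with r = 0.41 (permutation p = 0.215, adjusted 0.435) and rho = 0.21 (permutation p = 0.539, adjusted 0.747), and r was 0.65 in the 8 male libraries. The 5 negative pairs set Cspg4 against Bcas1, Ermn and Ugt8a, Pdgfra against Bcas1, and Lhfpl3 against Trf, and none of them passed for rho. For Bcas1 and Pdgfra, a gene of early myelinating cells and the precursor receptor, r = -0.80 (permutation p = 0.00304, adjusted 0.0351) and rho = -0.75 (permutation p = 0.0103, adjusted 0.154), with r at -0.70 without the 2 farthest libraries and -0.82 in the 8 male libraries. The median r of the 136 pairs of mature genes was 0.55 over 11 libraries, 0.64 in the 8 male libraries and 0.23 without the 2 farthest libraries of each pair. Leaving out the farthest libraries narrows the range of the first gene, which by itself tends to lower r.

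Markers of other cells were read as summed levels in the same libraries. Over all genes, 3.84% were higher and 5.35% lower at an unadjusted p under 0.05. The 8 neuronal genes summed to 5613 to 5867 CPM in WT and 5399 to 6651 CPM in the other group, and replicate 5 labelled cKO, at 5727 CPM, lay inside both ranges. The 7 astrocyte genes summed to 6757 to 8091 CPM in WT and 8278 to 10563 CPM in the other group, a sum that its most abundant genes dominate. By the average centred log2 CPM of the same 7 genes the groups overlapped, from -0.24 to 0.05 in WT and -0.09 to 0.44 in the other group. Of the 7, 3 were higher at an unadjusted p under 0.05 and 0 were called. The 7 microglial genes reached 582 to 639.8 CPM in WT and 581 to 849 CPM in the other group, with 4 of 7 higher at an unadjusted p under 0.05 and 0 called. Those of pericytes and smooth muscle, 7 genes of vessel walls, where Cspg4 is made too, summed to 232 to 278 CPM in WT and 248 to 273 CPM in the other group. Genes of the choroid plexus, a tissue next to the hippocampus, were highest in replicate 5 labelled cKO, where the 6 genes summed to 247 CPM, against 77.5 to 154 CPM in the other 10. That library also had the lowest total count, 24001828. The 8 genes of meninges and fibroblasts summed to 126 to 193 CPM in WT and 102 to 190 CPM in the other group. Of these 8, 4 were lower and 0 higher at an unadjusted p under 0.05, with a median log2 fold change of -0.37 and 0 called. Their average centred log2 CPM was 0.53, 0.33 and 0.37 in the female WT replicates 1, 3 and 4. It was -0.37 and 0.12 in the male WT replicates 2 and 5, and -0.30 to -0.03 in the libraries labelled cKO, all male. The high values in WT were thus mainly those of the female libraries, and the part of sex was not tested. The 6 genes of the thalamus and neighbouring tissue summed to 122 to 127 CPM in WT and 93.9 to 127 CPM in the other group, with 93.9 CPM in replicate 6 and 124 CPM in replicate 5 labelled cKO. By their average centred log2 CPM every library labelled cKO (-0.31 to -0.0068) was below every WT library (0.015 to 0.22), and 3 of 6 genes were lower at an unadjusted p under 0.05, with 0 called. The part of adjoining tissue, depth or dissection in the low mature genes of replicate 5 or in the group comparison was not tested. Markers of peripheral glia were low, and the 5 Schwann cell genes in the table summed to at most 7.42 CPM in any library.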

How the data were processed

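RNA of single hippocampi was sequenced after a poly(A), strand-marking library preparation, as the labels' protocols say. Named in the submitters' processing notes are bcl2fastq 2.17.1.14 and mm10. The aligner, counter, annotation and strand setting were not given in the sources used here, so antisense overlap cannot be told apart. The values the authors deposited are raw counts, whole numbers for each Ensembl gene. Of 30681 genes 30566 matched a symbol. Coordinates and exon lengths are from GENCODE M21 (mm10), upstream sequences from RefSeq (GRCm38.p6).

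Genes kept by filterByExpr (16587) were scaled by TMM and tested with edgeR's 2-sided quasi-likelihood F test, robust, with Benjamini-Hochberg adjustment over all tested genes and a threshold of 0.05. Each SE was derived from the F statistic, and intervals are at 95%. List averages use log2 CPM with a prior count of 2. The 30 members and all lists were chosen with earlier results of these data known. All members are named, with up to 3 genes of smallest p from each other list. Gldn is named beyond that rule, after its value was seen, to account for the count of the node list. Xist and 4 genes of the Y chromosome gave the sex. Each correlation used 100000 permutations. Replicate pairs had a chi-square of at least 5.70 per degree of freedom, so none was counted as a repeat. The test was tried on simulated counts of 200 changed genes. Alternatives were other scaling, filters and tests (DESeq2, limma-voom), a surrogate variable, the replicate block, a sex term, male libraries and each library left out. Versions were DESeq2 1.42.0, limma 3.58.1, sva 3.50.0, edgeR 4.0.16 and R 4.3.3.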

Additional observations from a re-analysis of the deposited data

How the results depend on the processing

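No member was called under any of the 24 alternatives, with a smallest adjusted p of 0.363 (edgeR, without replicate 1 labelled cKO). The median log2 fold change of the members stayed within -0.055 to 0.015. Members at an unadjusted p under 0.05 numbered 0 to 4 with 1 library left out, and 4 without replicates 4 and 5 labelled cKO. Over all genes, edgeR called 1 gene with total counts only, 3 with no low-count filter and 0 to 14 with 1 library left out, and DESeq2 called 62. With total counts only, the split at an unadjusted p under 0.05 was 262 higher and 1388 lower, against 637 and 887 with TMM. The replicate numbers were not taken to pair samples. Correlations of same-numbered libraries ran from -0.32 to 0.21, with replicate 4 labelled cKO closest to WT replicate 4 (0.21), and such values cannot exclude a shared batch. With the replicate block 0 members and 0 genes were called. Several log2 fold changes, none of them called, changed sign, and the cause was not tested. In the fit of all 11 libraries without a sex term these ran from -0.11 (Opalin) to 0.10 (Gjb1). With DESeq2 size factors the sign turned for Mal 0.00093. With total counts only the sign turned for Mobp -0.021 and Cspg5 -0.012. With no low-count filter the sign turned for Mog 0.00024 and Mal 0.0064. With the replicate block the sign turned for Mobp -0.017 and Gjb1 -0.073. With a sex term the sign turned for Mbp -0.014, Mog 0.060, Mobp -0.066, Mal 0.014, Opalin 0.023, Trf 0.14, Nkx6-2 0.074, Olig1 0.0072, Lhfpl3 -0.041 and Neu4 0.019. In the 8 male libraries the sign turned for Mbp -0.011, Mog 0.063, Mobp -0.063, Mal 0.016, Opalin 0.025, Trf 0.14, Nkx6-2 0.076, Olig1 0.0095, Lhfpl3 -0.039 and Neu4 0.022. With 1 surrogate variable the sign turned for Mobp -0.010. By limma-voom with quality weights the sign turned for Mobp -0.045, Cnp -0.018 and Gjb1 -0.0097. By DESeq2's Wald test the sign turned for Mal 0.00079. With 1 library left out the ranges that crossed 0 were Aspa -0.11 to 0.011, Cldn11 -0.037 to 0.14, Cnp -0.033 to 0.11, Gjb1 -0.051 to 0.19, Mal -0.061 to 0.048, Mobp -0.052 to 0.059, Mog -0.083 to 0.047, Myrf -0.080 to 0.011, Nkx6-2 -0.056 to 0.021 and Trf -0.090 to 0.022. The lowest count of any member in any library was 97 reads, and the part of depth was not tested.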

Other observations

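Mature oligodendrocyte genes did not keep a fixed proportion to one another across libraries. For every 100 CPM of Mbp, Mag had 2.40 CPM in replicate 2 labelled cKO, the lowest of the 11 libraries, and 4.29 CPM in WT replicate 4, the highest. In the same 2 libraries Sox10, per 100 CPM of Bcas1, was also lowest and highest, at 14.4 and 28.2 CPM. Over the 11 libraries Sox10 followed Mag (r = 0.94) and Bcas1 followed Mbp (r = 0.94), so these 2 ratios largely repeat each other. Mbp itself was 3291 CPM in replicate 2 labelled cKO and 2558 CPM in WT replicate 4, so the sheath genes there went opposite ways. Mobp, with 887 and 680.0 CPM, and Bcas1, with 225 and 160.4 CPM, lay on the side of Mbp. Fa2h, with 18.3 and 24.4 CPM, lay on the side of Mag. Mobp also followed Mbp (r = 0.92) and Fa2h followed Mag (r = 0.90), so these genes are not separate instances. The pattern was noticed in these data and its source was not tested.

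Tmem163, listed with the genes of differentiating cells, was high where the precursor gene Pdgfra was. It had 6.17 and 6.77 CPM in replicates 1 and 3 labelled cKO, above all other libraries, and these 2 libraries also had the most Pdgfra of their group, 67.6 and 67.6 CPM. Over the 11 libraries the pair had r = 0.74 (permutation p = 0.0112, adjusted 0.0704) and rho = 0.85 (permutation p = 0.00183, adjusted 0.0569), within the family of 435 pairs, so neither passed the adjustment. Without the 2 libraries farthest in Tmem163 r was 0.67. Olig2 was lowest in replicate 2 labelled cKO, at 21.7 CPM, as were Olig1, C1ql1 and Tmem163, while the microglial genes were highest there, with a sum of 849 CPM.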
